A study of Mus musculus with 9 samples.

Results

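The mouse Zfp zinc finger genes were followed in dendritic cells that took up tumor DNA with or without the DNA-sensing adaptor STING. The genes were chosen by their names and their mean level on these arrays: a probe set (a group of probes read as 1 signal) had to carry a single symbol made of Zfp and a number, Zfp36 was left out, the brightest such probe set on average represented the gene, and the gene was kept where its mean log2(signal + 16) over the 9 arrays was at least 7, a signal of 112. Of 304 Zfp genes with such a probe set, 170 were kept, and all 170 passed the lower filter of the statistical fit. A further 76 were tested but lay below 7. Zfp647, Zfp949 and Zfp28 lay just inside the limit, at 7.04, 7.01 and 7.01 in log2, while Zfp27, Zfp455 and Zfp408 lay just outside, at 6.95, 6.94 and 6.94. The mean was at least 7 in all 3 groups for 137 of the genes, in 2 groups for 29 and in 1 group for 4, so the last 29 and 4 reached it through the groups in which they were high.

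The cells were bone marrow cells of 129/SvEv mice, grown for 9 to 12 days in GM-CSF, a growth factor under which they become dendritic cells. The 3 groups of 3 samples were STING knockout cells given tumor DNA, wild-type cells given tumor DNA, and wild-type cells kept in media. The DNA was purified from tumor cells and carried in with Lipofectamine, a lipid reagent, 7 h before total RNA was taken, and 6 ug of RNA was labelled for a mouse Affymetrix array. Neither knockout cells in media nor cells with Lipofectamine alone were analysed here, so DNA and reagent cannot be told apart. Nor can a response to DNA that needs STING be told from a standing difference between the genotypes. The labels do not say whether the samples of a group came from separate mice or cultures, so each p-value reflects the spread among these 3 samples a group and that spread may be technical. GM-CSF cultures also hold cells other than dendritic cells, and in such bulk samples fewer cells of a type and less RNA per cell cannot be told apart.

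A classical zinc finger is a short fold held by a zinc ion that reads a few bases of DNA, and most proteins of this family carry a row of them. In mammals many of these proteins also carry a KRAB domain, which recruits the co-repressor Trim28 (KAP1) and, through it, the histone methyltransferase Setdb1 to silence transposable elements. Others have no KRAB domain and act as activators, RNA-binding proteins, ubiquitin ligases or ribosome assembly factors, so the family is defined by name and fold rather than by 1 function. STING relays the detection of cytosolic DNA by cGAS to the kinase Tbk1 and the factor Irf3, which switch on type I interferon.

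The signals had been scaled to the same trimmed mean of 499.8 on each array, correlations between arrays of 1 group ran over 0.955 to 0.978, and the Gapdh ratio of 3′ to 5′ signal, a measure of intact RNA, ran over 0.80 to 0.899, whereas BioB, a spiked control, gave 307 to 431 for number 1 of each group and 87.3 to 157 for numbers 2 and 3. Sting1 (STING itself) read 246, 336 and 327 in knockout cells with tumor DNA, against 2260, 1060 and 1160 in wild-type cells with tumor DNA and 1520, 1080 and 646 in wild-type cells in media. The summed signal of 8 dendritic cell markers was 54100 to 74500, 69800 to 88000 and 69600 to 79800 in the same order of groups. Of the 7 tested, only Batf3 was called, a factor of cross-presenting dendritic cells, which fell with tumor DNA in wild-type cells (-1.17, adjusted p = 0.0061) and was higher in the knockout under DNA (1.16, adjusted p = 0.0061). In the same comparisons 7 of 7 interferon-induced genes rose with tumor DNA in wild-type cells and 7 of 7 were lower in the knockout. Of 7 markers of cycling cells 0 were called (limma). In wild-type cells 7 of 7 read lower with tumor DNA than in media (median log2 difference -0.74), beside 61.2% of all genes. Under tumor DNA 7 of 7 read higher in the knockout than in the wild type (median 1.07), beside 61.7% of all genes. The groups stood without overlap in 0 of the 7 in the first comparison and 1 of the 7 in the second. The sums were 3540 to 10900 in knockout cells with tumor DNA, 1730 to 5360 in wild-type cells with tumor DNA and 2300 to 12700 in media. Of markers of other cells, 1 of 6 macrophage, 0 of 7 neutrophil, 1 of 7 mast cell and basophil, 2 of 4 plasmacytoid dendritic cell and 2 of 3 T and NK cell genes rose with DNA and 2, 1, 4, 2 and 2 of them were lower in the knockout, while 0 of the B cell, erythroid and fibroblast genes (3, 1 and 4 tested) were called. The neutrophil sums varied within the wild-type groups, at 35000 to 41800 in knockout cells with tumor DNA, 24900 to 91200 in wild-type cells with tumor DNA and 17100 to 71200 in media. The part of all these cells in the results below was not tested.

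Tumor DNA in wild-type cells was set against media to ask how the Zfp genes move when cytosolic DNA is sensed. Most of them read lower with DNA. Of the 170 genes, 71 fell (41.8%) and 5 rose (2.94%), called at a Benjamini-Hochberg adjusted p below 0.05 over all genes in a linear model with limma, while 94 were not called. Over all 12586 genes tested, 23.6% fell and 9.94% rose. The genes' median log2 difference was -0.51 (quartiles -0.87 and -0.16), beside -0.20 for all genes tested. Of the 170 differences, 144 were negative (84.7%), beside 61.2% of all genes. The groups did not overlap in 93 genes that read lower and 13 that read higher with DNA, 54.7% and 7.65% of the 170. The shares were 31.4% and 15% of all genes, and 38.1% and 15.8% of the 9203 other genes with a mean of at least 7.

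This leaning depended on how the arrays were set to a common level. With each array centred on its median instead, the median of all genes moved to 0.24 and that of the Zfp genes to -0.08, and 31 Zfp genes fell while 17 rose (18.2% and 10%, beside 8.58% and 21.9% of all genes). With quantile normalization 46 fell and 11 rose (27.1% and 6.47%, beside 17.5% and 10.9% of all genes), at medians of -0.28 for the Zfp genes and -0.10 for all genes. The Zfp median lay -0.32 from the median of all genes as the arrays were deposited, a distance that median centring leaves as it is by construction, and -0.18 after quantile normalization. Directions and counts are given on the deposited scale.

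**Figure D1:**
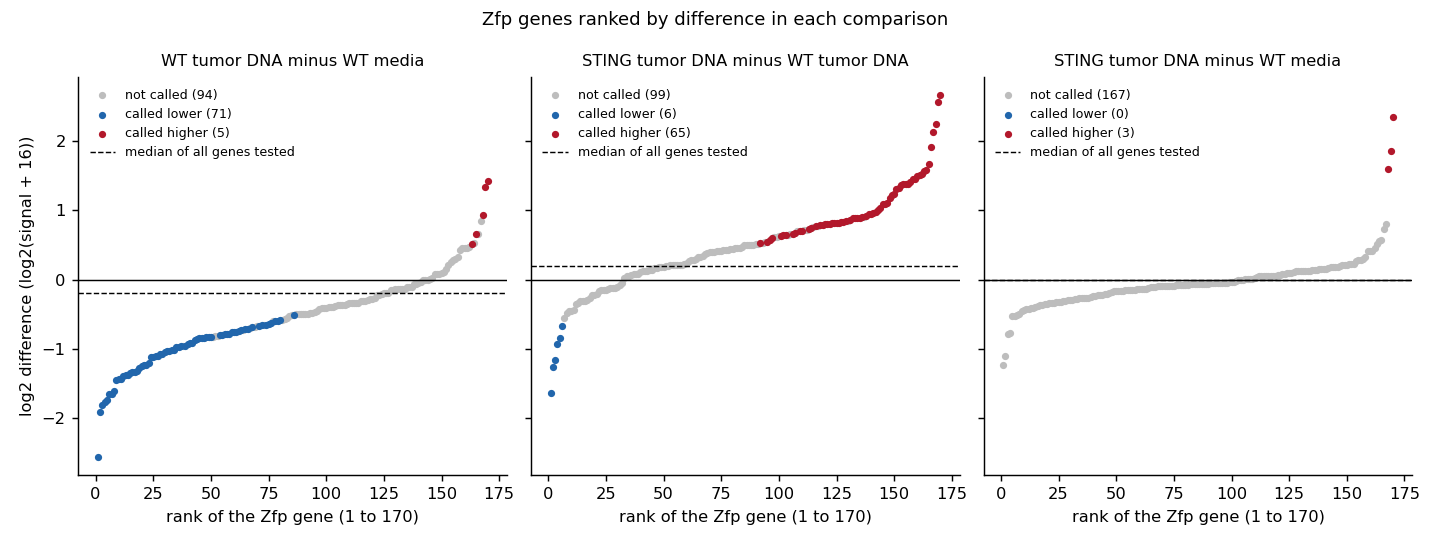
Log2 difference of each of the 170 Zfp genes (y axis, on the log2(signal + 16) scale) against its rank in that comparison (x axis), with genes called higher in red, called lower in blue and not called in grey. The dashed line is the median of all 12586 genes tested; 71 genes were called lower with tumor DNA in wild-type cells, 65 higher in the knockout under tumor DNA, and 3 higher in the knockout with tumor DNA against wild-type media.

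The share of falls also varied with the level of the probe set. Among 9203 other genes with a mean of at least 7, 29.5% fell and 12% rose, at a median of -0.30. Within the level range of 7 to 8, 37% of 73 Zfp genes fell, beside 24.6% of 1572 other genes. From 8 to 9 the shares were 46.9% of 49 Zfp genes and 37.6% of 1786 others, from 9 to 10 they were 43.3% of 30 and 35.8% of 1829, and above 10 they were 44.4% of 18 and 24.9% of 4016. The 76 Zfp genes below 7 gave 13 falls (17.1%) and 1 rise. Falls were rare among all genes below 7. Of the 2973 falls over all 12586 genes, 2783 lay among the 9373 genes with a mean of at least 7. The 17.1% is therefore not to be set against the shares at higher levels. These shares are descriptions, since the set was chosen with results of these arrays known.

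Each of the 3 numbered sets of samples showed the same leaning. WT tumor DNA read below WT media of the same number in 145, 131 and 135 of the 170 genes for numbers 1, 2 and 3, at medians of -0.78, -0.39 and -0.45. Among all genes 63.7%, 58.8% and 59.8% read lower in the same sets. Measured from the WT media mean, the median deviation of the Zfp genes was -0.06, -0.05 and -0.09 on the knockout arrays with tumor DNA, -0.69, -0.44 and -0.47 on the wild-type arrays with tumor DNA, and 0.07, -0.06 and -0.02 on the media arrays. The 3 wild-type arrays with DNA thus lay apart from the other 6, the first of them farthest. The 9203 other genes with a mean of at least 7 showed the same order by less. Their medians were -0.37, -0.21 and -0.26 on the wild-type arrays with DNA and -0.02 to 0.02 on the other 6.

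**Figure D2:**
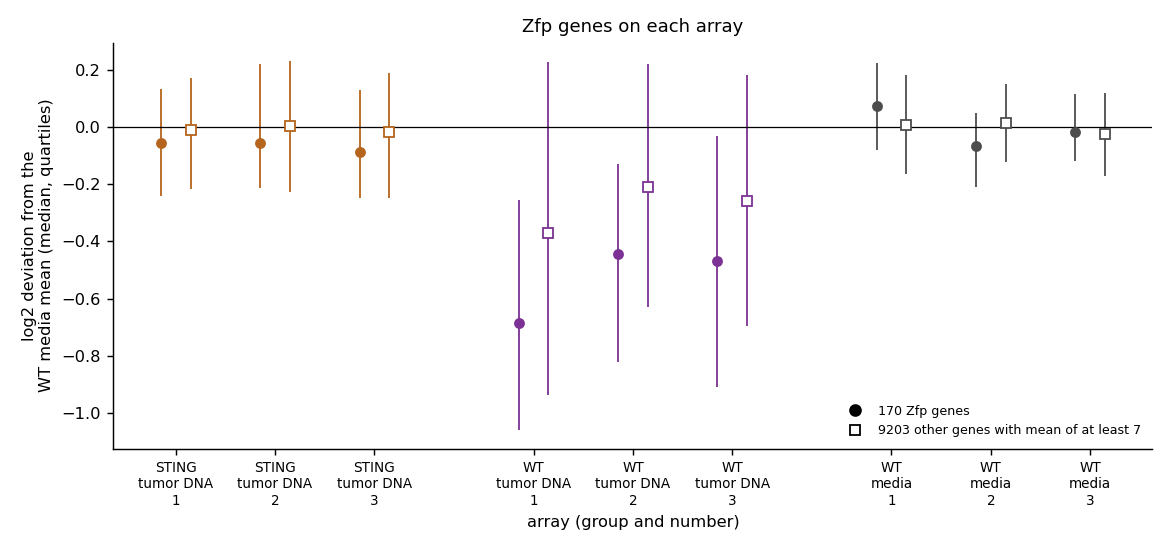
Median log2 deviation from the WT media mean (y axis, bars span the quartiles over genes) on each of the 9 arrays (x axis), for the 170 Zfp genes (filled circles) and 9203 other genes with a mean of at least 7 (open squares). The Zfp medians lie between -0.69 and -0.44 on the 3 arrays of wild-type cells with tumor DNA and between -0.09 and 0.07 on the other 6. Those of the other genes lie between -0.37 and -0.21 and between -0.02 and 0.02.

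The 5 Zfp genes that rose with DNA were Zfp800, Zfp319, Zfp281, Zfp777 and Zfp236. Zfp800 (chr6:28210548-28398033, GRCm38.p6), a protein-coding gene with no role stated here, read 2490, 1490 and 3080 with tumor DNA, against 688, 849 and 976 in media. The groups did not overlap, and the log2 difference was 1.42 ± 0.26 (SE, n = 3 each), 2.68-fold, with a limma adjusted p of 0.0033. Its other 6 probe sets, from mean levels of 6.29 to 10.24 in log2, all read higher with DNA, by 0.70 to 1.74.

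Zfp319 (chr8:95326131-95331811) read 642, 699 and 617 with tumor DNA, against 255, 250 and 237 in media. The groups stood well apart, at a log2 difference of 1.34 ± 0.18 (SE, n = 3 each; limma adjusted p = 9e-04), but its 3 dimmer probe sets differed by only 0.21 to 0.25, and with the mean of the 4 probe sets the value was 0.51 and the adjusted p 0.076. Zfp281, a repressor known from the control of pluripotency in embryonic stem cells, lies at chr1:136624901-136630391. It read 1960, 1290 and 2030 with tumor DNA, against 1070, 850 and 778 in media, all 3 above the media arrays, at 0.94 ± 0.20 (SE, n = 3 each; limma adjusted p = 0.0071), and its second probe set differed by 1.02. Without the samples numbered 3 the value was 0.73 and the adjusted p 0.12.

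Zfp777 and Zfp236 rose less and less firmly. Zfp777 read 259, 264 and 226 with tumor DNA, against 115, 149 and 202 in media, without overlap, a log2 difference of 0.66 ± 0.22 (SE, n = 3 each; limma adjusted p = 0.039). The call was lost when any wild-type array with DNA was dropped (adjusted p = 0.088, 0.092 and 0.057 for arrays 1, 2 and 3), and when media array 1 (0.13) or 2 (0.093) was. Zfp236 read 464, 528 and 474 with tumor DNA, against 283, 404 and 338 in media, again without overlap (0.51 ± 0.17, SE, n = 3 each; limma adjusted p = 0.044). Its second probe set ran the other way, at 230, 144 and 158 with DNA and 397, 264 and 298 in media, and the mean of both gave -0.15 (adjusted p = 0.48). Dropping any wild-type array with DNA also ended the Zfp236 call (adjusted p = 0.064, 0.11 and 0.079 for arrays 1, 2 and 3), as did dropping media array 1 (0.14) or 3 (0.094).

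The largest fall was that of Zfp704 (chr3:9427010-9610085), with 91.8, 47.2 and 68.9 under tumor DNA, against 693, 407 and 379 in media. No value of 1 group came near the other, and the log2 difference was -2.56 ± 0.30 (SE, n = 3 each; limma adjusted p = 0.00051), 5.9-fold lower with DNA. A second probe set gave -1.43. Zfp703 (chr8:26977336-26981462), a co-repressor related to Zfp503 and known as an oncogene in breast cancer, read 281, 332 and 430 with DNA and 1490, 915 and 1760 in media, a fall of 3.78-fold (log2 difference -1.92 ± 0.32, SE, n = 3 each; limma adjusted p = 0.0021). Both genes kept their falls under every alternative run here.

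A further 6 genes completed the 8 largest falls, with log2 differences of -1.81 to -1.62. Of these 8, Zfp704, Zfp157, Zfp398 and Zfp799 had mean levels of 6.38, 6.55, 6.27 and 6.55 in wild-type cells with DNA. These lie below the limit of 7, so the genes were kept through their levels in media and in the knockout. Part of the 71 falls thus came from genes that were below the limit with DNA. Zfp157 (chr5:138441458-138460900) read 48, 93.2 and 101 with DNA, against 477, 202 and 311 in media. Zfp398 (chr6:47835633-47873542) read 56.8, 47.6 and 83.2 with DNA, against 299, 218 and 233 in media, and its fall weakened to -0.69 (adjusted p = 0.051) with the mean of its 4 probe sets that passed the filter. Zfp799 (chr17:32815449-32830261) read 71.2, 109 and 58.9 with DNA, against 298, 309 and 281 in media. In these 3 genes every array with DNA lay below every media array.

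Zfp770 read 117, 208 and 246 with DNA, against 713, 547 and 575 in media. Zfp266 read 151, 295 and 299 with DNA, against 852, 691 and 804 in media, and 3 other probe sets read lower too, by -1.53 to -0.53. Zfp948 read 65.2, 86.7 and 67.1 with DNA, against 173, 397 and 239 in media, and its level with DNA also lay below the limit. The limma adjusted p-values of these 6 genes ran from 0.00067 to 0.0062, and Zfp948 lost its call without the samples numbered 3 (adjusted p = 0.085). Zfp715, with 590, 554 and 525 under DNA and 1730, 1290 and 1250 in media, was among the falls of smallest adjusted p (0.00059; log2 difference -1.32 ± 0.16, SE, n = 3 each).

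**Figure D3:**
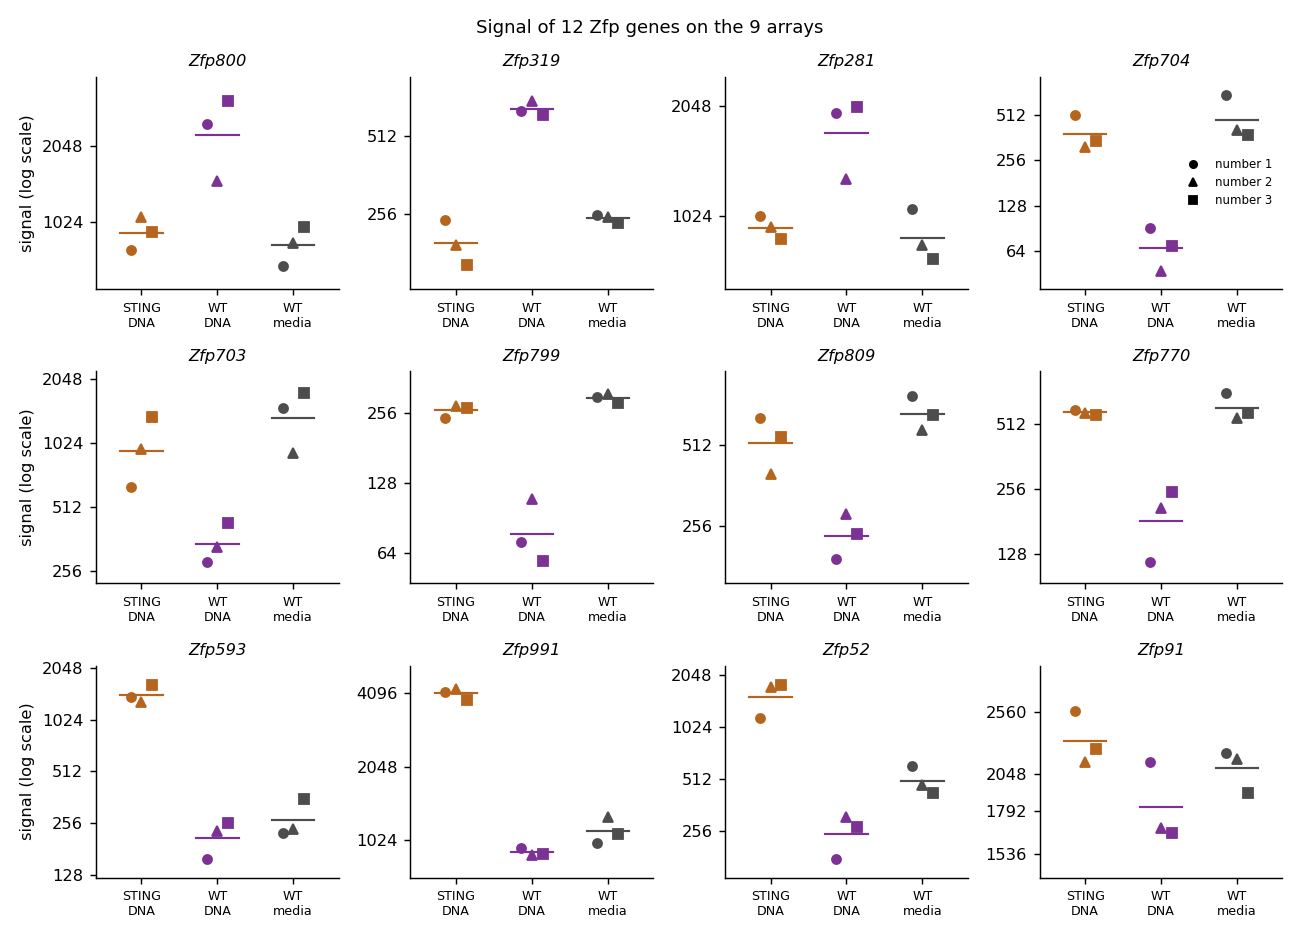
Signal (y axis, log scale) of 12 Zfp genes on the 9 arrays, with STING knockout cells given tumor DNA, wild-type cells given tumor DNA and wild-type cells in media from left to right; points are single arrays with their number as the shape, and lines are geometric means. Zfp800, Zfp319 and Zfp281 stand above both other groups in wild-type cells with DNA, Zfp704, Zfp703, Zfp799, Zfp809 and Zfp770 stand below both, and Zfp593, Zfp991 and Zfp52 are higher in the knockout than in both wild-type groups.

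Promoter windows, from 250 bases before to 50 after a transcript start in RefSeq (GRCm38.p6), matched 140 of the 170 genes by gene identifier, with 175 windows in all. The windows of the 3 largest called rises are shown first, with each CG in capitals, to show how the CpG count varies between members.
Zfp800 (chr6:28261875-28262174, minus strand): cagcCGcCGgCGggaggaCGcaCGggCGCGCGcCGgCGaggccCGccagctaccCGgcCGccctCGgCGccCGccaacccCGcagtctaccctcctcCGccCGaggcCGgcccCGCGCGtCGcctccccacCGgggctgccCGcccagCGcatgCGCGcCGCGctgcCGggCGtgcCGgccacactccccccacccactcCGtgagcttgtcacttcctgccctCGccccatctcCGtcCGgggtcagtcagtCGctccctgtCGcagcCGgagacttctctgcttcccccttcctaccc
Zfp800 (chr6:28397956-28398255, minus strand): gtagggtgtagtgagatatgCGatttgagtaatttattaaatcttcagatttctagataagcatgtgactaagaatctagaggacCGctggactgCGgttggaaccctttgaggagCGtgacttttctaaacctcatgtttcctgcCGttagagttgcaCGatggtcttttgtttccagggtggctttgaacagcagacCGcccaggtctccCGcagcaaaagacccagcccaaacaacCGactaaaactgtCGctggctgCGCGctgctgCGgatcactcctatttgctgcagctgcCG
Zfp319 (chr8:95331762-95332061, minus strand): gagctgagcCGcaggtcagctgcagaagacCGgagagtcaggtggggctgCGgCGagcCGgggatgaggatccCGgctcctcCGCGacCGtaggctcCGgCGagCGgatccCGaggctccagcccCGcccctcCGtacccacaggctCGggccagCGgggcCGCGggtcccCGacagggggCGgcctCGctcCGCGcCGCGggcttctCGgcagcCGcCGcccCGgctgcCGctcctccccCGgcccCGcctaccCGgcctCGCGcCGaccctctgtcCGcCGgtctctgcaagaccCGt
Zfp281 (chr1:136624651-136624950, plus strand): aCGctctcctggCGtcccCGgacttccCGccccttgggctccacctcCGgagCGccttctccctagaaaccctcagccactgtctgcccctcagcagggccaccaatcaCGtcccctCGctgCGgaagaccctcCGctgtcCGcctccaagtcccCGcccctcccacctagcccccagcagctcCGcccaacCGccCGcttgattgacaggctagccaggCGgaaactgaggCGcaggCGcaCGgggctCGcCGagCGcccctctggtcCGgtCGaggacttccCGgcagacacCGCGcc
The 3 largest called falls with a window are shown for contrast, with the same capitals.
Zfp157 (chr5:138441226-138441525, plus strand): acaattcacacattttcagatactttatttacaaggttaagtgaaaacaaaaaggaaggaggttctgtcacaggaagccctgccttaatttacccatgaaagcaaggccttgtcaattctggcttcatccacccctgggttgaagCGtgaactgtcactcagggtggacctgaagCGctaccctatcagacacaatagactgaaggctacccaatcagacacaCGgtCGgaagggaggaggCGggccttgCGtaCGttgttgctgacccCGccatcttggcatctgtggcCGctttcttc
Zfp398 (chr6:47835411-47835710, plus strand): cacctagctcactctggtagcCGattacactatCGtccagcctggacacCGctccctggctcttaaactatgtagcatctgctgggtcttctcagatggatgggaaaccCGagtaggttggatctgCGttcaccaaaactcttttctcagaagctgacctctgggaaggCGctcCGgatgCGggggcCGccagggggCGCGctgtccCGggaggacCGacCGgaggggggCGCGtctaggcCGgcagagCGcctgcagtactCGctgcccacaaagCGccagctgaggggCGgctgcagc
Zfp799 (chr17:32830212-32830511, minus strand): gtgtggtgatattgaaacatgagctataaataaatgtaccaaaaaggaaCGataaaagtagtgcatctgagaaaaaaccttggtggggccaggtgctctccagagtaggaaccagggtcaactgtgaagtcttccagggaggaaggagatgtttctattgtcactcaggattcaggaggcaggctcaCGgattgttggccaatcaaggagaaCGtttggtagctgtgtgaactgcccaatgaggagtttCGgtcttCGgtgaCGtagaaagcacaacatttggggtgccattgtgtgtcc
The first Zfp800 window holds 41 CpG and the second 14, the Zfp319 window holds 40 and that of Zfp281 27, while the windows of Zfp157, Zfp398 and Zfp799 hold 9, 21 and 6. For each gene with a window, the CpG count and GC content were averaged over its windows. The median CpG count was 33.75 (range 27 to 51) in the 4 that rose, 15 (3 to 40.5) in the 62 that fell and 17.25 (3 to 49) in the 74 not called. The median GC content was 74%, 54.5% and 58.3% in the same sets. Zfp windows as a whole had a median of 16, beside 7 for all 32851 windows. Across the 140 genes, which share arrays and family, Spearman's rho with the log2 difference was 0.20 for the CpG count and 0.22 for GC content, weak relations given as a description.

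The same windows were searched on both strands for the letters GAAANNGAAA, the core of the interferon response element, and TTCNNNGAA, the core bound by STAT factors. The interferon core stood in 2.29% of the Zfp windows and in 3.44% of all windows, and in none of the windows of the genes that fell or rose. The STAT core stood in 12.6% of the Zfp windows and in 8.3% of all windows, in 12.2% of the windows of genes that fell and in 0 of 5 windows of genes that rose. Of the windows printed, that of Zfp398 holds the STAT core, 107 bases before the start. A match is a string of letters and not a bound site.

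Knockout cells under tumor DNA were set against wild-type cells under tumor DNA to ask which of these levels differ between the genotypes under DNA. Without knockout cells in media, a different response to DNA and a standing difference between the genotypes cannot be told apart. The Zfp genes read mostly higher in the knockout. Of the 170, 65 were called higher (38.2%) and 6 lower (3.53%), beside 21.8% and 9.73% of all genes tested (limma). Among the 9203 other genes with a mean of at least 7, 27.4% were higher and 11.7% lower, at a median of 0.28. The median log2 difference was 0.50 for the Zfp genes and 0.20 for all genes. Of the 170 differences, 138 were positive (81.2%), beside 61.7% of all genes. By number, the knockout array read above the wild-type array in 139, 136 and 131 of the 170 genes (81.8%, 80% and 77.1%). Among all genes 61.2%, 61.3% and 59.8% read higher in the same sets. After median centring 28 Zfp genes were higher and 20 lower (16.5% and 11.8%, beside 8.68% and 19.8% of all genes), the medians being 0.10 for the Zfp genes and -0.20 for all genes. This comparison shares the 3 wild-type arrays with DNA with the one against media, so the opposite signs of both are not separate evidence.

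The 8 largest called differences upward began with Zfp593, at 1390, 1290 and 1630 in the knockout with DNA, against 160, 230 and 257 in the wild type with DNA (log2 difference 2.67 ± 0.23, SE, n = 3 each; limma adjusted p = 9.7e-05). Zfp52 read 1150, 1740 and 1790 in the knockout with DNA, against 177, 309 and 268 in the wild type with DNA, a difference of 2.56 ± 0.25 (SE, n = 3 each; limma adjusted p = 0.00019). Zfp991 read 4140, 4250 and 3830 in the knockout with DNA, against 950, 896 and 901 in the wild type with DNA (2.13 ± 0.14, SE, n = 3 each; limma adjusted p = 3.3e-05). These 3 genes are also far from wild-type media and are taken up again below.

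The other 5 were all among the genes that fell with DNA in the wild type, on the same wild-type arrays with DNA, so this is not separate evidence. All but Zfp770 had wild-type levels with DNA below the limit of 7 in log2. Zfp704 read 513, 315 and 343 in the knockout with DNA, against 91.8, 47.2 and 68.9 in the wild type with DNA, a difference of 2.25 ± 0.30 (SE, n = 3 each; limma adjusted p = 0.00069). Zfp709 read 409, 350 and 285 in the knockout with DNA, against 116, 39.4 and 102 in the wild type with DNA (1.92 ± 0.35, SE, n = 3 each; limma adjusted p = 0.0029), while its fall with DNA from media (-1.34, adjusted p = 0.016) was not shared by its second probe set (-0.05). That fall lost its call with median centring (-0.91, adjusted p = 0.089), the mean of both probe sets (-0.70, 0.087) and without media array 1 (0.057). Zfp948 read 184, 407 and 249 in the knockout with DNA, Zfp770 read 596, 577 and 564, and Zfp799 read 244, 274 and 269, all above their wild-type arrays with DNA given above, by 1.67, 1.59 and 1.57 in log2. None of these 5 was called against wild-type media, with differences of -0.30 to 0.58.

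The 6 genes called lower in the knockout were Zfp319, Zfp800, Zfp691, Zfp982, Zfp281 and Zfp513. Zfp319 read 244, 196 and 163 in the knockout with DNA, against 642, 699 and 617 in the wild type with DNA, a difference of -1.64 ± 0.18 (SE, n = 3 each; limma adjusted p = 3e-04). Zfp800 read 793, 1070 and 936 in the knockout with DNA, against 2490, 1490 and 3080 in the wild type with DNA (-1.27 ± 0.26, SE, n = 3 each; limma adjusted p = 0.0053). Zfp281 read 1020, 952 and 883 in the knockout with DNA, against 1960, 1290 and 2030 in the wild type with DNA (-0.85 ± 0.20, SE, n = 3 each; limma adjusted p = 0.011). These are the 3 largest rises with DNA in the wild type, and all read lower in the knockout, without overlap between the groups. Both comparisons use the same 3 wild-type arrays with DNA, so the lower readings are not separate evidence. Without the samples numbered 3 the adjusted p was 0.081 for Zfp800 and 0.15 for Zfp281.

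The remaining 3 were less firm. Zfp691 read 198, 73.4 and 140 in the knockout with DNA, against 327, 265 and 330 in the wild type with DNA (-1.16 ± 0.36, SE, n = 3 each; limma adjusted p = 0.034), and the call was lost when knockout array 2 (adjusted p = 0.12) or 3 (0.071) was dropped, or any wild-type array with DNA (0.09, 0.052 and 0.088 for arrays 1, 2 and 3). Zfp982 read 52.3, 109 and 51.6 in the knockout with DNA, against 186, 124 and 123 in the wild type with DNA (-0.92 ± 0.29, SE, n = 3 each; limma adjusted p = 0.034), a call lost when knockout array 1 (0.1) or 3 (0.12) or the first wild-type array with DNA (0.11) was dropped. Zfp513 read 411, 357 and 408 in the knockout with DNA, against 748, 589 and 570 in the wild type with DNA (-0.67 ± 0.17, SE, n = 3 each; limma adjusted p = 0.013), and leaving out knockout array 2 gave 0.055. In all 3 the groups did not overlap. Dimmer probe sets of Zfp982, below the filter, differed by 1.74 and -0.04 between knockout and wild type with DNA.

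Knockout cells with DNA were last set against wild-type media, which differ in genotype and in DNA together. Of the 170 genes, 3 were called higher (1.76%) and 0 lower, beside 0.167% and 0.262% of all genes tested (limma). An unadjusted limma p below 0.05 was found in 15 of the 170, beside 948 of all 12586 genes tested. The Zfp median was -0.06 and that of all genes -0.01. The 3 genes were Zfp593, Zfp991 and Zfp52.

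Zfp593, the mouse relative of the yeast factor Bud20 that helps export large ribosomal subunits, lies at chr4:134243306-134245591. It read 1390, 1290 and 1630 in the knockout with DNA, against 225, 239 and 353 in wild-type media, 5.11-fold higher (log2 difference 2.35 ± 0.23, SE, n = 3 each; limma adjusted p = 0.0014). In the wild type it did not pass the test between DNA and media (-0.31, adjusted p = 0.33). A dimmer second probe set, below the filter, read 0.97 higher in the knockout than in media, but the groups overlapped. It read 75.7, 55.9 and 72.4 in the knockout with DNA, against 14.8, 7.31 and 91.4 in media. Leaving out the samples numbered 2 or 3 gave adjusted p-values of 0.099 and 0.1.

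Zfp991 (chr4:147132093-147180579) read 4140, 4250 and 3830 in the knockout with DNA, against 997, 1280 and 1090 in wild-type media, a log2 difference of 1.85 ± 0.14 (SE, n = 3 each; limma adjusted p = 0.00027). A second bright probe set of the gene did not share this: it read 672, 1140 and 774 in the knockout with DNA, 693, 1180 and 1160 in the wild type with DNA, and 867, 1320 and 1400 in wild-type cells in media. Averaged over its 2 probe sets that passed the filter the difference was 0.69 (adjusted p = 0.24), and without the samples numbered 3 the adjusted p was 0.1. Zfp991 lies in a region of chromosome 4 rich in closely related zinc finger genes, and what each of its 2 bright probe sets reads was not tested.

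Zfp52 (chr17:21533725-21563362) read 1150, 1740 and 1790 in the knockout with DNA, against 604, 474 and 425 in wild-type media (1.59 ± 0.25, SE, n = 3 each; limma adjusted p = 0.03). Its second probe set differed by 1.16 in the same direction, and the mean of both gave an adjusted p of 0.062. The call against media was lost when knockout array 2 (0.14) or 3 (0.18) was dropped, or any media array (0.057, 0.12 and 0.14 for arrays 1, 2 and 3). Against wild-type cells with DNA the Zfp52 call held under all alternatives. Within the wild type it fell with DNA (-0.97, adjusted p = 0.016), but its second probe set differed by only -0.17. This call was lost with quantile normalization (-0.67, adjusted p = 0.064), median centring (-0.54, 0.095) and the mean of both probe sets (-0.57, 0.12), and without wild-type DNA array 1 (0.05) or media array 1 (0.057).

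The genes beside these 3 were looked up within 10 protein-coding genes on either side. Between the knockout with DNA and wild-type media, 0 of 11 tested genes beside Zfp593, 0 of 4 beside Zfp991 and 0 of 12 beside Zfp52 were called (limma), in a comparison that called 0.167% of all genes higher and 0.262% lower, so a count of 0 is near the background. Between the knockout and the wild type under DNA, 3 of the 11, 2 of the 4 and 4 of the 12 were called higher and 0, 1 and 0 lower, beside 21.8% and 9.73% of all genes. The largest of these was Pafah2 beside Zfp593, at 2.74 (adjusted p = 0.0018), a gene named here after its value was seen.

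A list of 30 members, most with a described role, was named whatever its result and is given by role, with the wild-type DNA against media difference first and the knockout against wild-type difference under DNA second. Among those that silence chromatin or retroviral DNA, Zfp809, which recruits Trim28 to retroviral primer binding sites, read 645, 400 and 550 in the knockout with DNA, 192, 284 and 238 in the wild type with DNA and 781, 581 and 662 in media. It fell with DNA by 1.45 on the log2 scale (SE 0.23, adjusted p = 0.0017) and was higher in the knockout by 1.10 (adjusted p = 0.0052), the wild-type DNA arrays lying below all others. Zfp638, which works with the HUSH complex on unintegrated retroviral DNA, read 1140, 1040 and 942 in the knockout with DNA, 534, 697 and 557 in the wild type with DNA and 1260, 1120 and 886 in media (-0.85, adjusted p = 0.0067, and 0.79, adjusted p = 0.0091).

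Zfp445, which protects imprinted methylation, was 1 of the 5 members of highest mean and read 2500, 2290 and 2360 in the knockout with DNA, 1300, 1410 and 1300 in the wild type with DNA and 2690, 2320 and 2400 in media. Its fall of 0.87 on the log2 scale (SE 0.13, adjusted p = 0.0012) and the difference of 0.83 in the knockout (adjusted p = 0.0013) kept their calls under every alternative run. Zfp644, a partner of the methyltransferases G9a and GLP, fell with DNA (-0.51, adjusted p = 0.026) but not past the test in the knockout comparison (0.19, adjusted p = 0.37), and its fall was no longer called when wild-type DNA array 1 (adjusted p = 0.068) or 3 (0.056), or media array 1 (0.071) or 2 (0.073), was dropped. Zfp217, a co-repressor component and breast cancer oncogene, fell by 0.67 on the log2 scale (adjusted p = 0.035), a call lost when wild-type DNA array 3 (0.12) or media array 1 (0.12) or 2 (0.054) was dropped. Zfp592 and Zfp687, partners of Zmynd8, were not called (0.09 and 0.15 with DNA, adjusted p = 0.74 and 0.52), and neither was Zfp410, an activator of Chd4 (-0.03, adjusted p = 0.92).

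Among the members that act on RNA and ribosomes, Zfp106, an RNA-binding protein needed by motor neurons, read 2260, 2100 and 1910 in the knockout with DNA, 1460, 1300 and 1350 in the wild type with DNA and 3040, 2890 and 2460 in media. It fell with DNA (-1.02, adjusted p = 0.00096) and was higher in the knockout (0.60, adjusted p = 0.0095), but 2 of its other probe sets read higher with DNA (0.29 and 0.31, at levels above 7), and the mean of its 4 probe sets that passed the filter gave -0.18 (adjusted p = 0.37) and 0.33 (adjusted p = 0.11). Zfp326, which couples splicing to RNA polymerase II, fell by 0.83 on the log2 scale (adjusted p = 0.0028) and stood higher in the knockout by 1.24 (adjusted p = 0.00039), reading 1270, 1310 and 1360 in the knockout with DNA, 504, 552 and 586 in the wild type with DNA and 907, 943 and 1110 in media. Zfp598, the ligase that marks collided ribosomes, fell by 0.80 on the log2 scale (adjusted p = 0.0039), at 842, 902 and 960 in the knockout with DNA, 588, 468 and 556 in the wild type with DNA and 1010, 901 and 911 in media. Every wild-type array with DNA lay below all others in Zfp326 and Zfp598.

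Zfp622, a factor of large ribosomal subunit maturation, was not called in any comparison, at 4790, 4410 and 4040 in the knockout with DNA, 4160, 4210 and 4340 in the wild type with DNA and 5140, 3780 and 4940 in media (-0.11, 95% interval -0.44 to 0.22, with DNA). Zfp207, a spindle assembly protein, read 4680, 4750 and 4420 in the knockout with DNA, 5170, 4800 and 5190 in the wild type with DNA and 4040, 4500 and 4130 in media, higher with DNA without overlap but not called (0.26, adjusted p = 0.099), and 5 other probe sets read lower with DNA, by -1.09 to -0.14. Zfp346, which binds double-stranded RNA, was not called (-0.42, adjusted p = 0.13).

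Among members tied to immune signalling, Zfp91, a ubiquitin ligase of the noncanonical NF-kB pathway, read 2570, 2140 and 2240 in the knockout with DNA, 2140, 1690 and 1660 in the wild type with DNA and 2210, 2160 and 1910 in media, and was not called (-0.20, adjusted p = 0.34, with DNA). Its second bright probe set ran the other way, at 896, 1010 and 998 in the knockout with DNA, 1400, 1260 and 1260 in the wild type with DNA and 767, 844 and 980 in media, so the direction for Zfp91 depends on the probe set. Zfp318, needed for IgD in B cells, Zfp335, needed for T cell maturation, and Zfp451, a SUMO ligase, were not called in either comparison, with differences of -0.50, -0.15 and -0.81 with DNA (adjusted p = 0.097, 0.52 and 0.092).

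Of the other members named whatever their result, Zfp263, Zfp746 (PARIS, a repressor of the PGC-1 alpha gene) and Zfp830 fell with DNA by 0.92, 0.98 and 0.63 on the log2 scale (adjusted p = 0.0057, 0.0034 and 0.019) and were higher in the knockout by 0.88, 0.85 and 0.81. The Zfp830 fall lost its call without wild-type DNA array 1 or media array 2 (0.055 and 0.072). Zfp131, Zfp148, Zfp292, Zfp384, Zfp407 and Zfp467 were not called in any comparison, with differences of -0.52 to 0.52 with DNA, and Zfp467 was too uneven to place (172, 125 and 82.6 with DNA against 417, 89.1 and 153 in media). After median centring the falls of Zfp263, Zfp746, Zfp830, Zfp326, Zfp598, Zfp638, Zfp217 and Zfp644 all kept their sign but were no longer called (adjusted p = 0.054 to 0.69), while those of Zfp703, Zfp809, Zfp445 and Zfp106 were. It also ended the calls between knockout and wild type of Zfp106, Zfp263, Zfp598, Zfp638, Zfp746 and Zfp830 (differences of 0.20 to 0.49, adjusted p = 0.068 to 0.33).

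**Figure D4:**
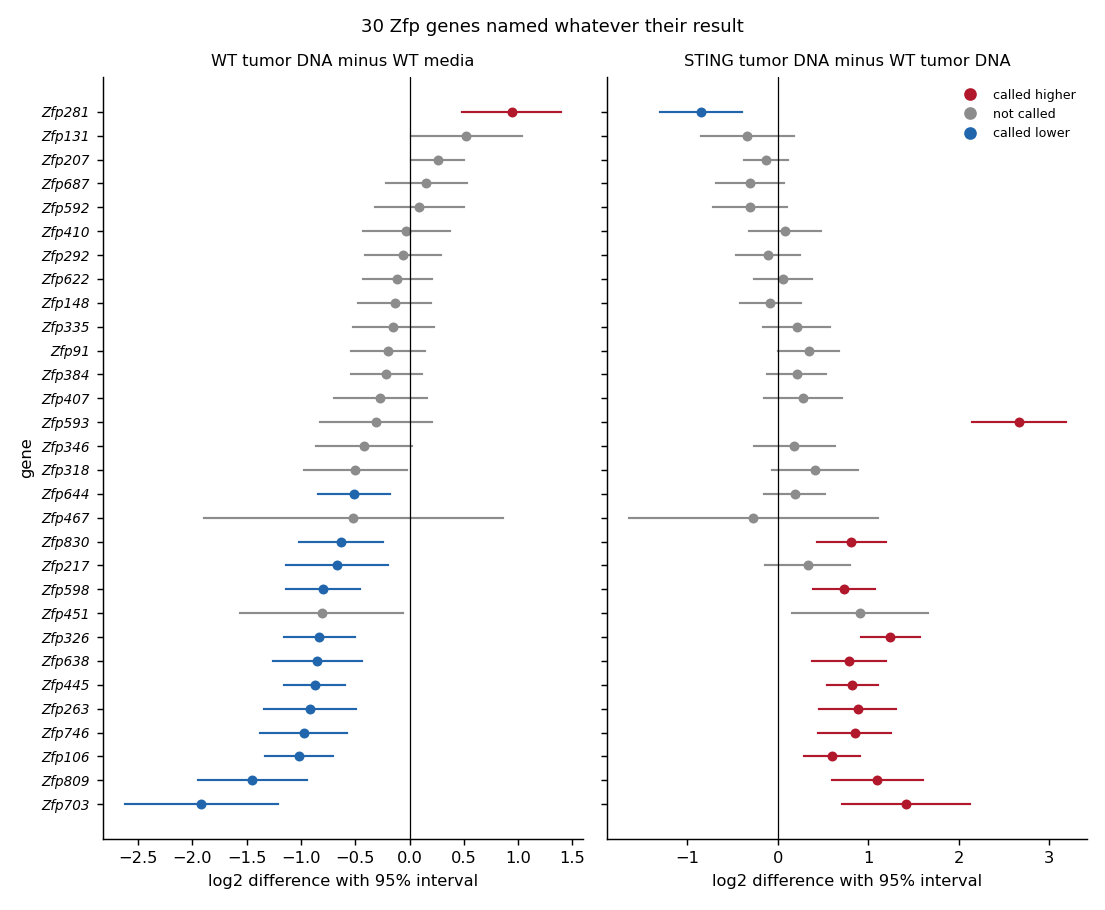
Log2 difference with its 95% interval (x axes) for the 30 Zfp genes named whatever their result (rows), for wild-type cells with tumor DNA minus wild-type media on the left and knockout minus wild type under tumor DNA on the right; red marks genes called higher, blue called lower and grey not called. Zfp703, Zfp809 and Zfp106 lie lowest with DNA and Zfp281 highest, and Zfp593 stands apart on the right at 2.67.

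The co-repressor machinery that KRAB proteins use was listed beside the family. Of 24 tested genes, 8 fell and 2 rose with DNA (33.3% and 8.33%, median -0.43), and 9 were higher and 2 lower in the knockout (37.5% and 8.33%; limma). Of all genes tested 23.6% fell and 9.94% rose with DNA, and 21.8% were higher and 9.73% lower in the knockout. Of the 22 listed genes with a mean of at least 7, 36.4% fell and 9.09% rose with DNA, beside 29.7% and 11.8% of all genes at that level. In the knockout 40.9% of them were higher and 9.09% lower, beside 27.6% and 11.6%. Trim28 read 2660, 2650 and 2930 in the knockout with DNA, against 1050, 1290 and 1540 in the wild type with DNA and 2830, 2400 and 3310 in media (-1.14, adjusted p = 0.0016, with DNA). Morc2a, a HUSH-associated ATPase, read 633, 545 and 607 in the knockout with DNA, against 197, 160 and 216 in the wild type with DNA and 781, 577 and 595 in media (-1.68, adjusted p = 0.00042, with DNA). Setdb1 was not called (-0.57, adjusted p = 0.11), and Hdac1 and Kdm1a rose with DNA by 0.94 and 0.44 (adjusted p = 0.016 and 0.023). Among relatives of the family with a mean of at least 7, 8 of 25 Zbtb genes fell and 3 rose with DNA, and 7 were higher and 2 lower in the knockout. Of 10 Zscan and Zkscan genes, 3 fell and 0 rose with DNA, and 3 were higher and 0 lower in the knockout. The shares that fell, 32% and 30%, lie near the 29.7% of all genes with a mean of at least 7.

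By position, all 170 genes were placed in RefSeq (GRCm38.p6), 33 of them on chromosome 7 and 28 on chromosome 17. Runs of 3 or more members with at most 5 protein-coding genes between neighbours held 59 genes in 11 runs. Of these 59, 25 fell with DNA (42.4%), beside 46 of the 111 others (41.4%). The largest run, chr17:21008941-22867309, holds 17 members including Zfp52 and Zfp948, of which 5 fell with DNA and 7 were higher in the knockout, with differences of -1.62 to -0.11 with DNA, all 17 below 0. Of all 170 genes, 41.8% fell, 38.2% were higher in the knockout and 84.7% lay below 0 with DNA. Of all genes tested the shares were 23.6%, 21.8% and 61.2%. In a run of 3 on chromosome 18, Zfp236, Zfp516 and Zfp407, the median was 0.46 and 0 fell.

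Other probe sets of the same genes were read as a check on the choice of 1 per gene. Of the 170 genes, 72 had a single probe set and 98 had 198 others. For 17 genes that fell, 26 other probe sets had a mean of at least 7, and 23 of these also read lower with DNA (median -0.60, beside -0.86 for the chosen ones). For 16 genes higher in the knockout, 20 of 22 such probe sets also read higher. Probe sets of 1 gene share its samples and are not replicates.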

How the data were processed

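Messenger RNA of 9 samples in 3 groups of 3 was measured on 9 arrays. The deposited values are linear signal intensities that the authors made with MAS5, per the submitters' processing notes. Its version, the genome build and detection calls were not given in these sources, and low values may be background. Of 45101 probe sets, 64 are controls. Of the others, 34945 carried 1 gene symbol in the platform annotation, 932 several and 9160 none, and only the first kind were named.

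Signals were taken as log2(signal + 16), which understates changes of low signals. Probe sets with a mean above the 40th percentile (5.67) were kept, the brightest standing for each gene, which left 12586 genes. All 9 arrays were fitted with limma 3.58.1 in R 4.3.3 (lmFit, eBayes with an intensity trend, no replicate term), and 2-sided p-values were adjusted by Benjamini-Hochberg over all genes of each comparison. The scripts were tested on simulated data.

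The members and lists were chosen with earlier results of these data known. Named were, per comparison, the 8 largest rises and falls among called members without overlap and the 3 smallest adjusted p-values in each direction, the 5 members of highest mean, 3 genes on either side of the level limit, and a list named whatever its result. Zfp143 and Zfp706 of that list were not analysed here. Genes of the co-repressor list and of marker lists are named as examples outside this rule.

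Residuals of arrays with the same number, taken from the sample titles, correlated at 0.171 to 0.487 over 9 pairs, and those of different numbers at -0.419 to 0.142, with 9 of 9 arrays closest to one of their own number. The numbers were therefore used to pair the samples in an alternative fit, while the main fit did not pair them. The spiked control BioB gave 307 to 431 where the number was 1 and 87.3 to 157 elsewhere, so that number was also tried as a batch. Precision is limited by the 3 arrays per group.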

Additional observations from a re-analysis of the deposited data

How the results depend on the processing

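Of the 58 calls of named genes, 538 of 580 values under alternatives that kept all arrays stayed on their side of the threshold in the same direction, 41 lost it and 1 reversed (Zfp236 with the mean of its probe sets, -0.15), and 92 of 522 values lost it when arrays were left out. Of the 76 genes called between DNA and media in wild type, 47 were called without any 1 array, as were 47 of the 71 called between knockout and wild type. The count of 5 rises with DNA became 11 with quantile normalization, 17 with median centring, 3 without a filter, 8 with number 1 as a batch, 3 with the arrays of both groups only and 2 to 5 with arrays (those of the groups compared, here and below) or numbers left out. The 71 falls became 46 with quantile normalization, 31 with median centring, 44 of 97 at a mean of at least 8, and 25 to 70 with arrays or numbers left out. The 65 genes higher in the knockout became 28 with median centring, 42 of 97 at a mean of at least 8 and 23 to 63 with arrays or numbers left out, and the 6 lower became 12 with quantile normalization, 20 with median centring and 1 to 5 with arrays or numbers left out. The 3 genes higher in the knockout than in media became 1 with the mean of probe sets and 0 to 4 with arrays or numbers left out. The shares of all genes moved as well. With arrays or numbers left out, 3.81% to 8.8% rose and 8.05% to 22.9% fell with DNA. In the knockout 6.75% to 21.3% were higher and 4.2% to 8.99% lower, and 0.00795% to 0.31% were higher than in media. Of all genes, 6.83% rose without a filter, 12.5% with number 1 as a batch and 9.07% with the arrays of both groups only. With the replicate number as a block, which pairs the samples, 10 genes rose and 85 fell with DNA, 78 were higher and 8 lower in the knockout, and 4 were higher and 0 lower against media, while the shares of all genes moved too, to 13.2% and 31.6%, 29.9% and 13%, and 0.683% and 0.715%. The cause of these shifts was not tested, beyond the smaller number of arrays where some were left out. With 3 arrays a group, differences of the size of the array spread were not detectable.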
